A study of Mus musculus with 20 samples.

Results

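The genes of cholesterol synthesis and sterol control were described in Sca-1-positive mouse kidney cells. The cells were fresh from roxadustat and control mice, or cultured with and without roxadustat. The set is a list of 30 genes by function, and all 30 were found among the 47729 genes of the count tables. It holds 18 synthesis enzymes, made up of 7 of the mevalonate steps, 3 that lead through squalene to lanosterol and 8 that turn lanosterol into cholesterol. The other members are 5 genes of the SREBP control circuit, 3 of sterol uptake and movement, and 4 of sterol export and its LXR receptors. A low-count filter kept 29 of them, and Npc1l1, a sterol uptake protein known from the gut, was left untested with 0 to 0.199 CPM in any library. CPM is the count as a share of the library total, scaled by TMM, a factor computed after the most extreme genes are set aside.

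Cells carrying Sca-1, a surface marker used to enrich stem and progenitor cells, were taken from digested kidney by magnetic sorting. Roxadustat is a drug against anemia; it inhibits prolyl hydroxylases and so keeps hypoxia-inducible factor (HIF) from being degraded. Fresh cells (day 0) came from mice injected intraperitoneally with roxadustat at 33 mg/kg for 7 days (n = 2 libraries) and from control mice (n = 2). Cultured cells were kept for 7 days with roxadustat (n = 4) and without it (n = 4), and for 21 days with roxadustat (n = 4) and without it (n = 4), all in 20% oxygen. The series design states that the drug was in the culture. Strain and age of the mice, the drug level in the medium and whether cultured cells came from injected mice are not given in the labels. Nor do the labels say whether replicates are separate mice or cultures, so p-values measure the spread between these libraries, which may be technical. All groups share the same estimate of that spread, so SEs and p-values of day 0 rest in part on the cultured libraries.

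Total counts were 8502011 to 19903160 per library. The cells are labelled mesenchymal stem cell-like, and Ly6a, the gene of Sca-1, stood at 668 to 715 CPM in roxadustat and 495 to 550 CPM in control cells at day 0. In culture Ly6a was at 479 to 525 CPM with roxadustat and 158 to 172 CPM in controls at day 7. At day 21 it was at 469 to 528 CPM with roxadustat and 161 to 199 CPM in controls. Fresh cells held far more of 10 kidney epithelium markers (summed 26900 to 28600 CPM with roxadustat, 30800 to 34300 CPM in controls) than of 10 stromal markers (1480 to 1780 CPM with roxadustat, 887 to 973 CPM in controls), so the label of the fresh cells goes against their markers. In culture the epithelial sums were 621 to 644 CPM with roxadustat and 259 to 276 CPM in controls at day 7, and 549 to 556 CPM with roxadustat and 18.2 to 22.2 CPM in controls at day 21. No marker of either list was at 0 in all libraries of a group. Summed levels of 5 HIF targets were 385 to 406 CPM with roxadustat and 323 to 332 CPM in controls at day 0. They were 833 to 909 CPM with roxadustat and 67.5 to 71.4 CPM in controls at day 7, and 751 to 776 CPM with roxadustat and 70.2 to 76.8 CPM in controls at day 21. The 4 control libraries of day 21 lay in 2 close pairs, and the 2 control libraries of day 0 differed more than any other replicates. Counts of called members are therefore also given with the close pairs summed. The day 0 count and some day 0 gene results are given with a library left out. Gene values of the day 7 against day 0 comparisons are not given without either day 0 control.

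Cells make cholesterol from acetyl-CoA through mevalonate, squalene and lanosterol. When sterols in the endoplasmic reticulum run low, SCAP carries the SREBP transcription factors to the Golgi, where they are cut and released to switch on the synthesis enzymes. INSIG proteins hold SCAP back when sterols are plentiful. In the opposite state, oxidised sterols activate the LXR receptors, which switch on exporters of cholesterol such as ABCA1.

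SREBP binds sterol response elements, often near sites of the CCAAT-binding factor NF-Y, and most members were lower with roxadustat at day 21. Promoters are therefore shown for 4 members the results turn on. These are Hmgcs1 and Mvk, enzymes that were lower with roxadustat in culture, and Insig1 and Insig2, which moved in opposite directions at day 21. Each line holds the 250 bases before a RefSeq start on GRCm38.p6, 5′ to 3′ on the strand of the gene, at chr13:119690101-119690350 (plus), chr5:114444019-114444268 (plus), chr5:28071162-28071411 (plus) and chr1:121332590-121332839 (minus). Capitals mark TCACNCCAC, a sterol response element, and CCAAT, which reads ATTGG where it lies on the other strand. RefSeq gives Insig2 3 windows. The one shown starts farthest upstream, next to the start of the gene in GENCODE M21, and holds 3 CCAAT and no GGGCGG; the other windows hold no CCAAT and 1 GGGCGG each, and 1 of them holds the only CCNNCCCAC counted for Insig2.
Hmgcs1: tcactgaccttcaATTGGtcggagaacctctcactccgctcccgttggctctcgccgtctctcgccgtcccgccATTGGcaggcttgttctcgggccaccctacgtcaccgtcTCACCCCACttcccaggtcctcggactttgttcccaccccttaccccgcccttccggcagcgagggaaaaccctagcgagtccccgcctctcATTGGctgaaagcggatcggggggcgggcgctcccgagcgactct
Mvk: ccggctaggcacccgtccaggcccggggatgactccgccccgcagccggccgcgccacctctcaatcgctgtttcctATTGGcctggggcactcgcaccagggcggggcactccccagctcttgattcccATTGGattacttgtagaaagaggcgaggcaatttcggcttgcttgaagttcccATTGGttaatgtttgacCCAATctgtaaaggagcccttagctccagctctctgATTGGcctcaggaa
Insig1: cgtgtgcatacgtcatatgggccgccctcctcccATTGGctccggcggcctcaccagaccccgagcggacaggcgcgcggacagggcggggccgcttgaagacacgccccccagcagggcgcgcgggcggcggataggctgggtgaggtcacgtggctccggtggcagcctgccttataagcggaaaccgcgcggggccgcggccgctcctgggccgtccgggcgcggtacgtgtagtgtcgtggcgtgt
Insig2: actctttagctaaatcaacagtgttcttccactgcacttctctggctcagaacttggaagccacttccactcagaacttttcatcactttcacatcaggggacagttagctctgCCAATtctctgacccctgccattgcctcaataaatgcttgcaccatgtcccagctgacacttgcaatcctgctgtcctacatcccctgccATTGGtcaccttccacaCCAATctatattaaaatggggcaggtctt

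Of the 30 members, 24 had at least 1 promoter window in the RefSeq table (33 windows of 250 bases before to 50 after a start, 27025 genes in all). CCAAT was found on either strand in 19 of the 24 (79.2%), among them 14 of 15 enzymes, against 41.1% of all genes with a window. The letters TCACNCCAC were in the window of Hmgcs1 alone, where they start at base -137, and in 1.44% of all genes. The looser element CCNNCCCAC was in 7 members (29.2%) and 17.8% of all genes, and GGGCGG, the core bound by Sp1, in 20 (83.3%) and 38.2%. ACGTG, the core of the HIF motif, was in 6 members (25%) and 21.8% of all genes; the same 6 hold the E-box CACGTG, which contains it (8.09% of all genes). These are matches of letters in a window and no measure of binding.

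With roxadustat the enzymes of cholesterol synthesis were lower than in control cells, in some members at day 0 and day 7 and in nearly all at day 21. At day 21 24 of the 29 tested members were lower and 2 higher (89.7% called, against 62.9% of all 18731 tested genes, 30% higher and 32.9% lower). The median log2 fold change of the members was -0.89, against 0 over all tested genes. At day 7 12 members were lower and 6 higher (62.1%, against 47.7% of all genes, 24.1% higher and 23.6% lower), with a median of -0.13 against 0.03. At day 0 10 members were lower and none higher (34.5%, against 6.83% of all genes, 2.73% higher and 4.11% lower), with a median of -0.30 against -0.01. The libraries of the 2 arms did not overlap in 24 of the 29 at day 21 (56.2% of all genes), 17 at day 7 (47.7%) and 20 at day 0 (42.3%). All calls are from edgeR's quasi-likelihood test with Benjamini-Hochberg adjustment over all tested genes and a threshold of 0.05.

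**Figure D1:**
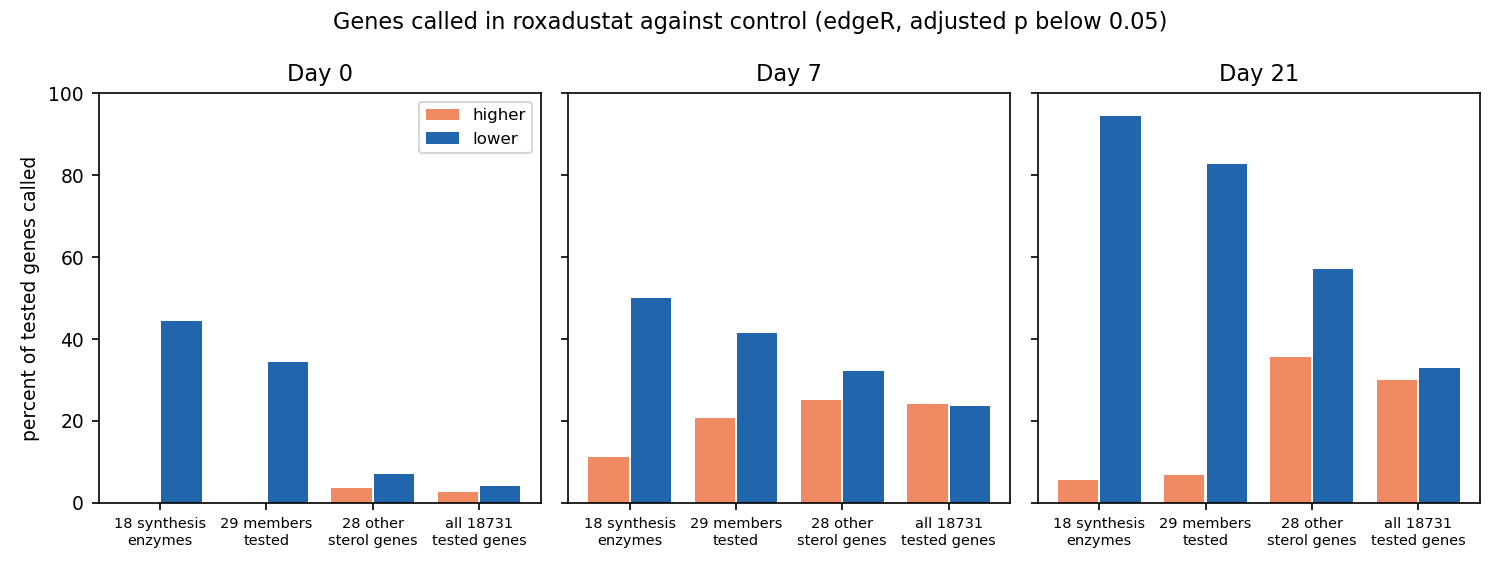
Percent of tested genes called higher (orange) and lower (blue) in roxadustat against control cells at days 0, 7 and 21, for the 18 synthesis enzymes, the 29 tested members, 28 other sterol genes and all 18731 tested genes. At day 21 94.4% of the enzymes were lower, against 32.9% of all tested genes.

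The day 21 split depends on scaling. With library size alone the median of all genes was 0.34 and 20 members were lower and 5 higher; Pmvk, Hsd17b7, Srebf1 and Srebf2 lost their calls, and Stard4, Nr1h2 and Nr1h3 were called higher. With each close pair of control libraries summed, 26 members were again called at day 21. The day 0 count came from a fit that shares its spread with the cultured libraries. In that fit of all groups the count at the adjusted threshold was 16 when control replicate 2 was left out (14 lower, 2 higher) and 6 when roxadustat replicate 2 was left out. Fitted on the 4 day 0 libraries alone it was 0 of 29 with edgeR (23 of 15575 genes called in all), 0 with limma voom and 2 with DESeq2. At an unadjusted p below 0.05 the edgeR count was 12 of 29, all lower.

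**Figure D2:**
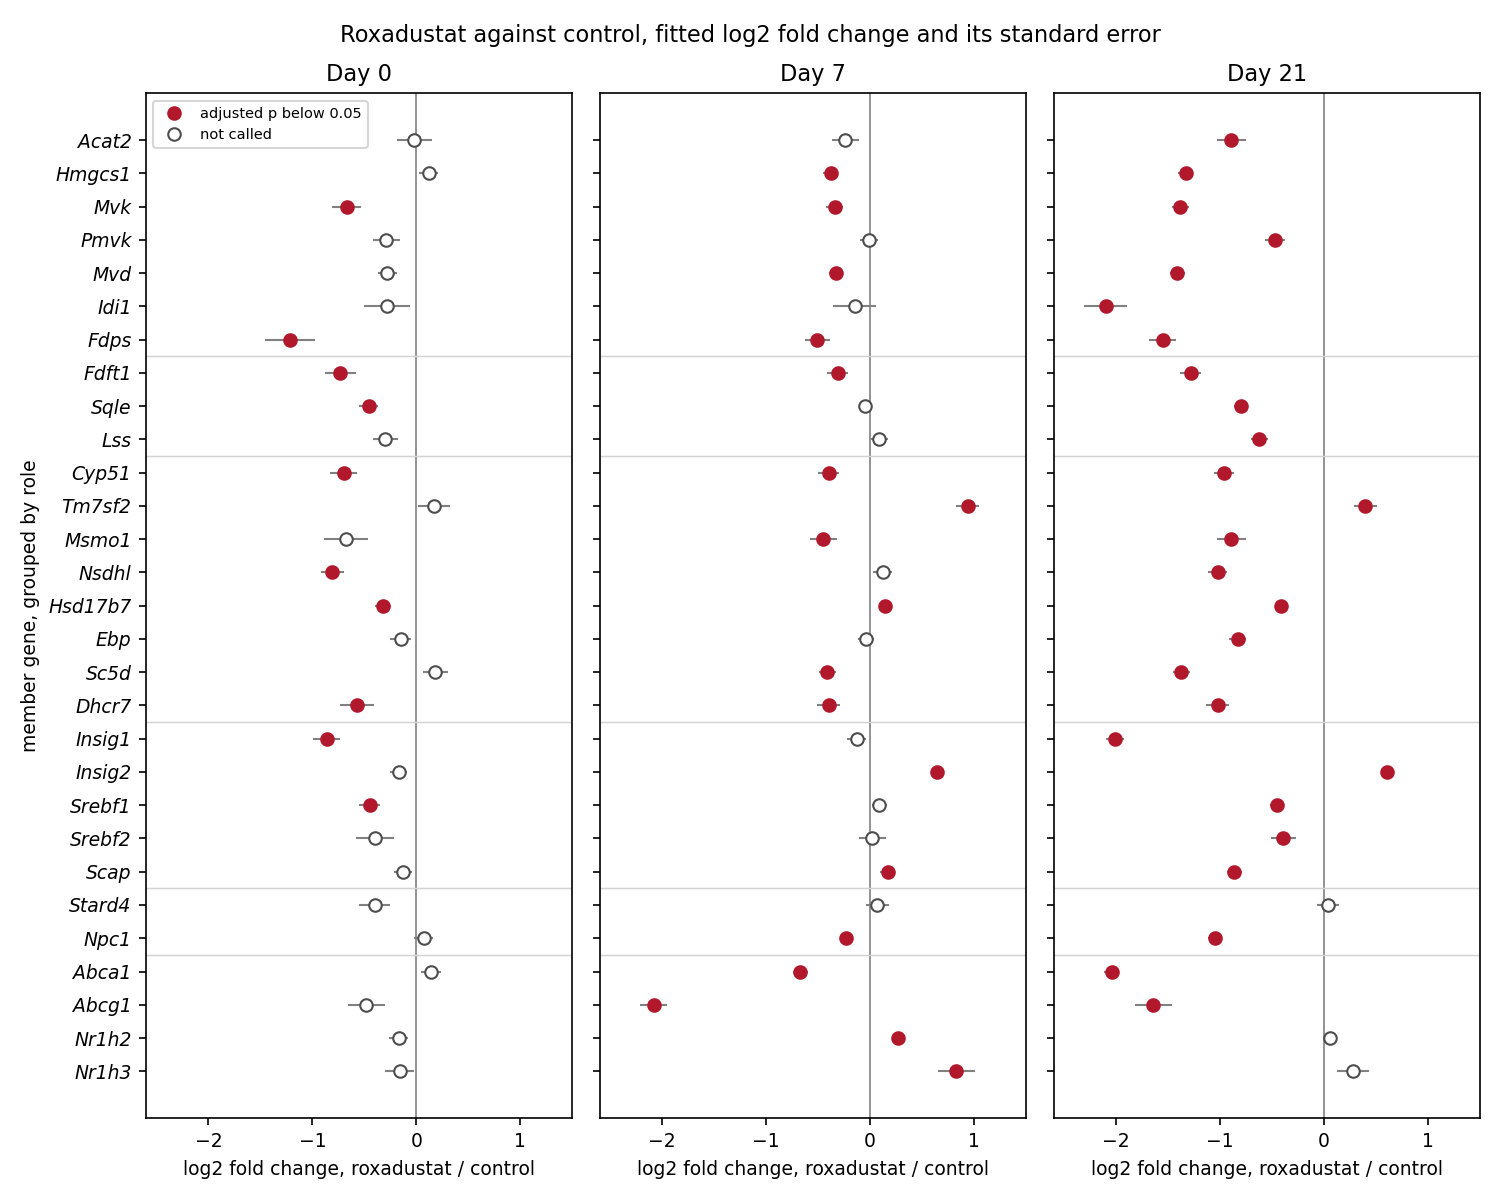
Fitted log2 fold change of 29 members, roxadustat over control, at days 0, 7 and 21 (x axis; bars are standard errors), grouped by role from mevalonate enzymes at the top to export and LXR genes at the bottom. Filled points were called, and at day 21 all enzymes but Tm7sf2 lie left of 0, from -0.41 in Hsd17b7 to -2.10 in Idi1.

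Of the 7 mevalonate enzymes, 2 were lower at day 0, 4 at day 7 and all 7 at day 21, and none was called higher. Hmgcs1, the synthase that makes HMG-CoA, is the member with the highest level per exon length in every group (chromosome 13, 119690379 to 119708260 in GENCODE M21 on GRCm38; 12.1% of its exon bases overlap Gm48342). At day 21 it had 107, 113, 101 and 111 CPM with roxadustat, against 290, 271, 260 and 264 CPM in control cells. At day 7 it had 154, 157, 147 and 146 CPM with roxadustat, against 189, 198, 197 and 205 CPM in controls. The groups did not overlap at either time, and every roxadustat library of day 21 lay below every one of day 7. The log2 fold change was -1.33 ± 0.07 at day 21 (SE, edgeR adjusted p = 4.93e-16) and -0.38 ± 0.07 at day 7 (adjusted p = 2.07e-05). In fresh cells Hmgcs1 was not called, with 1360 and 1250 CPM with roxadustat and 1030 and 1380 CPM in controls (log2 fold change 0.12 ± 0.09, adjusted p = 0.545); without control replicate 2 it was called higher (0.34, adjusted p = 0.0115).

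Mvk, mevalonate kinase, was lower at all 3 times. Its levels at day 21 were 14.6, 14.4, 15.7 and 16 CPM with roxadustat, against 41.6, 40, 38.1 and 38.1 CPM in controls, without overlap. At day 0 they were 8.21 and 6.09 CPM with roxadustat, against 12.6 and 10.3 CPM in controls, again apart. The log2 fold changes were -0.67 ± 0.14 at day 0, -0.34 ± 0.08 at day 7 and -1.38 ± 0.08 at day 21 (adjusted p = 0.00213, 0.000508 and 5.49e-15), and the day 0 call was lost without roxadustat replicate 2 (-0.48, adjusted p = 0.0788). Mvd, the decarboxylase that makes isopentenyl diphosphate, had 12.1, 13.9, 11.3 and 11.6 CPM with roxadustat at day 21, against 33.6, 33, 31 and 33.4 CPM in controls (log2 fold change -1.41 ± 0.07, adjusted p = 6.27e-16). At day 7 Mvd was lower by less (-0.33 ± 0.07, adjusted p = 0.000348), and at day 0 it missed the threshold (-0.28 ± 0.09, adjusted p = 0.0543). Pmvk, phosphomevalonate kinase, was called lower at day 21 (-0.47 ± 0.10, adjusted p = 0.000197).

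Fdps, farnesyl diphosphate synthase, was the member with the lowest fold change at day 0 (2.32 and 2.89 CPM with roxadustat, against 7.85 and 4.21 CPM in controls; -1.22 ± 0.24, adjusted p = 0.0015). That call was lost when control replicate 1 was left out (-0.71, adjusted p = 0.0899). It was also lost when roxadustat replicate 1 was left out (-1.07, adjusted p = 0.0526). At day 21 its 4 libraries had 5.38, 5.94, 7.06 and 5.61 CPM with roxadustat, against 19.2, 18, 16.2 and 15.9 CPM in controls. At day 7 they had 10.8, 10.3, 9.38 and 8.1 CPM with roxadustat, against 14.2, 13.4, 12.9 and 14.4 CPM in controls. The groups were apart at both times, with a log2 fold change of -1.55 ± 0.13 at day 21 (adjusted p = 3.32e-11) and of -0.51 ± 0.12 at day 7 (adjusted p = 0.00081). Idi1, which isomerises that product for use by Fdps, is a low gene in culture: 0.612, 0.944, 0.994 and 0.885 CPM with roxadustat at day 21, against 3.07, 4.2, 3.83 and 3.72 CPM in controls (-2.10 ± 0.21, adjusted p = 9.8e-10). Acat2, the thiolase at the start of the route, was lower at day 21 (-0.89 ± 0.14, adjusted p = 1.88e-05). Sequence shared with other genes limits some of these values. Of the 50-base words of Acat2, 39.1% also occur in Acat3 or Tcp1. The share is 26.2% for Fdps and 25.3% for Idi1, which includes exon overlap at the same locus, with Gm43738 over 26.7% of the exon bases of Fdps and with Gm48574 over 9.22% of those of Idi1.

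**Figure D3:**
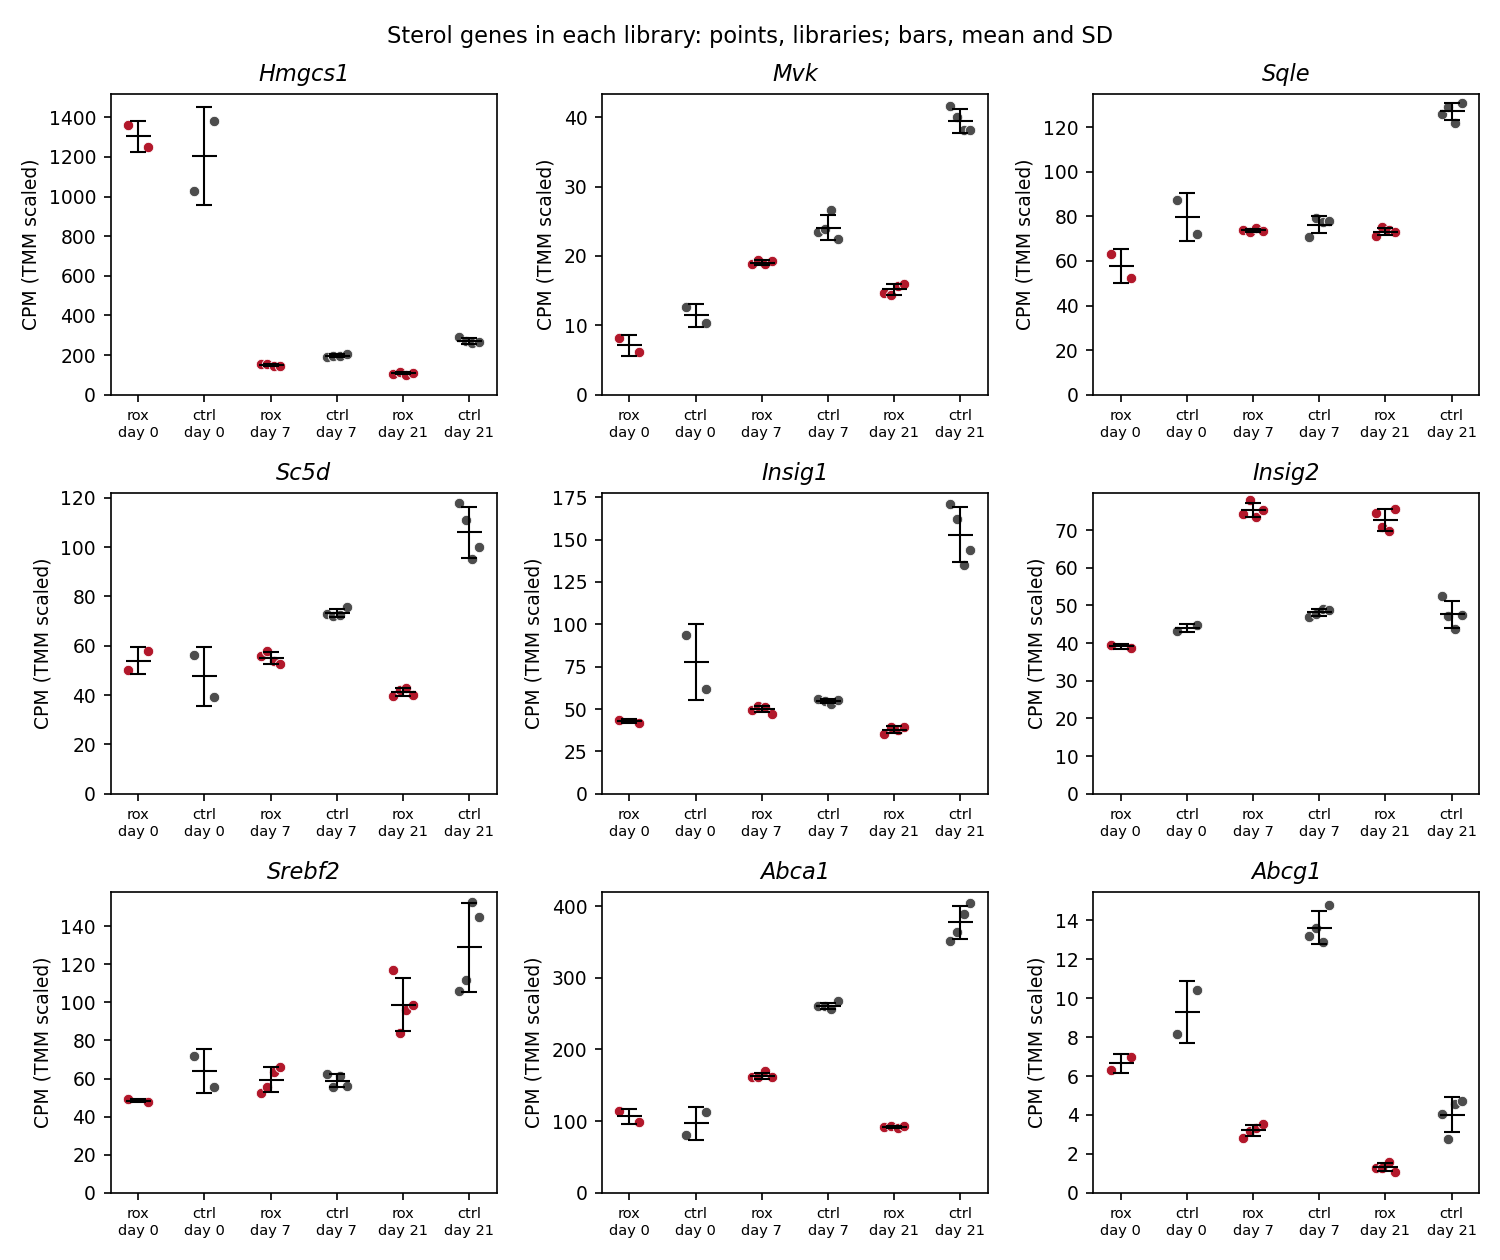
CPM of 9 members in each library (points) with group mean and SD (bars), for roxadustat (red) and control (grey) cells at days 0, 7 and 21; each panel has its own linear axis from 0. Control cells of day 21 stand above the roxadustat cells in all panels but Insig2, where the order is turned round, and Srebf2, where the libraries overlap.

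All 3 enzymes from farnesyl diphosphate to lanosterol were lower at day 21. Fdft1, squalene synthase, had 21.8, 23.2, 24.3 and 21.9 CPM with roxadustat, against 58.6, 53.8, 56.5 and 52.3 CPM in controls (-1.28 ± 0.10, adjusted p = 3.22e-11). At days 0 and 7 it was lower too (-0.73 ± 0.15 and -0.31 ± 0.10, adjusted p = 0.00261 and 0.01), and the day 0 call was lost without control replicate 1 (-0.28, adjusted p = 0.141). Of its 50-base words 26.5% also occur in Ctsb or Gm6781, and 18.3% of its exon bases overlap Ctsb. Its day 0 libraries had 20.8 and 18.9 CPM with roxadustat, against 41.8 and 24.1 CPM in controls. Sqle, squalene epoxidase, an oxygen-using and tightly regulated step, had 71, 75.1, 73.7 and 72.8 CPM with roxadustat at day 21, against 126, 129, 122 and 131 CPM in controls. The libraries of the groups were far apart at day 21 (-0.80 ± 0.06, adjusted p = 2.29e-12) and intermixed at day 7, at 72.8 to 74.7 CPM with roxadustat and 70.5 to 79.1 CPM in controls (-0.05 ± 0.06, adjusted p = 0.515). At day 0 Sqle was lower in the fit of all groups, with 63.1 and 52.5 CPM with roxadustat against 87.1 and 72 CPM in controls (-0.46 ± 0.09, adjusted p = 0.000909). With edgeR on the day 0 libraries alone neither Sqle nor any other member was called. Lss, lanosterol synthase, differed at day 21 (-0.62 ± 0.08, adjusted p = 8.38e-08) and was not called at day 0 (-0.30 ± 0.12) or day 7 (0.09 ± 0.08).

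Of the 8 enzymes after lanosterol, 7 were lower and 1 higher at day 21, 4 lower and 2 higher at day 7, and 4 lower at day 0. Sc5d, the desaturase near the end of the route, had 39.8, 41.9, 43 and 40.1 CPM with roxadustat at day 21, against 118, 111, 95.2 and 100 CPM in controls (-1.37 ± 0.08, adjusted p = 3.68e-14). At day 7 it had 55.9, 57.9, 53.8 and 52.6 CPM with roxadustat, against 72.8, 72.2, 72.4 and 75.9 CPM in controls, again without overlap (-0.41 ± 0.08, adjusted p = 8.83e-05). Cyp51, the demethylase of lanosterol and also an oxygen-using enzyme, was lower at days 0, 7 and 21 (-0.70 ± 0.13, -0.40 ± 0.10 and -0.96 ± 0.10; adjusted p = 0.00203, 0.00154 and 2.31e-08). Its day 0 libraries had 224 and 257 CPM with roxadustat, against 306 and 475 CPM in controls, and the call was lost without roxadustat replicate 1 (-0.61, adjusted p = 0.0552). At day 7 Cyp51 had 98.8, 105, 105 and 93.6 CPM with roxadustat, against 132, 138, 132 and 130 CPM in controls, without overlap. Dhcr7, which makes cholesterol in the last step, was also lower at each time (-0.57 ± 0.16, -0.40 ± 0.11 and -1.02 ± 0.11; adjusted p = 0.0292, 0.00461 and 4.77e-09). Its day 0 libraries had 10.9 and 8.14 CPM with roxadustat, against 15.5 and 12.8 CPM in controls, and the call was lost when control replicate 1 (-0.43, adjusted p = 0.181) or roxadustat replicate 2 (-0.38, adjusted p = 0.305) was left out.

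Msmo1, a methylsterol oxidase that also uses oxygen, had 115, 113, 106 and 104 CPM with roxadustat at day 7, against 141, 156, 150 and 152 CPM in controls, without overlap (-0.45 ± 0.13, adjusted p = 0.0104), and was lower at day 21 (-0.89 ± 0.14, adjusted p = 2.23e-05). Nsdhl, the decarboxylating dehydrogenase of the same step, was lower at day 0 (34.1 and 33.2 CPM with roxadustat, against 49.4 and 68.3 CPM in controls; -0.81 ± 0.11, adjusted p = 3.69e-05) and at day 21 (-1.02 ± 0.09, adjusted p = 7.06e-11), but not called at day 7 (0.12 ± 0.09, adjusted p = 0.267). Ebp, a sterol isomerase, was lower at day 21 (-0.83 ± 0.08, adjusted p = 1.02e-09). Hsd17b7, a ketosteroid reductase, was lower at days 0 and 21 (-0.32 ± 0.08 and -0.41 ± 0.05; adjusted p = 0.0163 and 1.77e-07). Its day 0 call was lost when control replicate 2 (-0.28, adjusted p = 0.118) or roxadustat replicate 2 (-0.26, adjusted p = 0.195) was left out. At day 7 the call of Hsd17b7 as higher (0.14 ± 0.05, adjusted p = 0.0359) was lost with DESeq2's size factors (0.10, adjusted p = 0.134) and without 6 of the 8 libraries in turn.

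Tm7sf2, a sterol reductase, was the enzyme that went the other way. At day 7 it had 11.8, 11.3, 12.9 and 10.3 CPM with roxadustat, against 6.79, 5.97, 6.06 and 5.31 CPM in controls (0.94 ± 0.11, adjusted p = 9.63e-08). At day 21 the libraries overlapped, with 9.87, 12.6, 13.4 and 14.3 CPM with roxadustat against 10.8, 9.72, 7.99 and 9.48 CPM in controls (0.40 ± 0.11, adjusted p = 0.00331). Exons of Tm7sf2 overlap those of Vps51 over 12.1% of their bases, and counts without strand cannot separate the 2 genes there. Lbr, the inner nuclear membrane protein that catalyses the same reduction as Tm7sf2 and is no member, had 24.6 to 28.5 CPM with roxadustat and 47.8 to 51 CPM in controls at day 7 (-0.87 ± 0.07, adjusted p = 6.05e-11).

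In the SREBP circuit Insig1 and Insig2, whose proteins both hold back SCAP, went in opposite directions at day 21. Insig1, itself a target of SREBP (chromosome 5, 28071363 to 28078662), had 35.2, 39.6, 37.5 and 39.4 CPM with roxadustat at day 21, against 171, 162, 135 and 144 CPM in controls. In fresh cells it had 43.8 and 42 CPM with roxadustat, against 93.7 and 61.9 CPM in controls, and at day 7 47.3 to 51.8 CPM with roxadustat against 52.8 to 55.8 CPM in controls. The libraries did not overlap at any of the 3 times, but at day 7 the difference was small and not called (-0.13 ± 0.09, adjusted p = 0.255). The log2 fold changes of days 0 and 21 were -0.86 ± 0.13 and -2.01 ± 0.09 (adjusted p = 0.000131 and 1.91e-15). Insig2 (chromosome 1, 121304353 to 121332589) had 74.3, 78, 73.6 and 75.2 CPM with roxadustat at day 7, against 47, 47.8, 49 and 48.9 CPM in controls. At day 21 it had 74.6, 70.7, 69.8 and 75.6 CPM with roxadustat, against 52.4, 47.1, 43.8 and 47.4 CPM in controls. All 8 cultured roxadustat libraries lay above all 8 cultured controls, with log2 fold changes of 0.64 ± 0.05 and 0.61 ± 0.05 (adjusted p = 6.38e-11 and 1.08e-10). Fresh cells showed no call for Insig2 (39.6 and 38.7 CPM with roxadustat, 43.2 and 44.8 CPM in controls; -0.17 ± 0.08, adjusted p = 0.248).

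Srebf2, the SREBP gene chiefly tied to cholesterol synthesis, had 117, 83.7, 96.1 and 98.5 CPM with roxadustat at day 21, against 106, 112, 153 and 145 CPM in controls. The groups overlapped, and the lower level with roxadustat was small (-0.39 ± 0.12, adjusted p = 0.0115; -0.04 with library size alone, adjusted p = 0.793). Srebf1, the SREBP gene chiefly tied to fatty acid synthesis, was lower at day 21, at 79.2, 70.7, 74.2 and 79.9 CPM with roxadustat and 101, 101, 110 and 104 CPM in controls (-0.45 ± 0.07, adjusted p = 9.23e-07; -0.10 with library size alone, adjusted p = 0.152). At day 0 Srebf1 was lower as well (-0.45 ± 0.10, adjusted p = 0.00345), a call lost when control replicate 1 was left out (-0.32, adjusted p = 0.0633) and when roxadustat replicate 2 was left out (-0.38, adjusted p = 0.0675). At day 7 neither was called, with 0.02 ± 0.13 for Srebf2 and 0.09 ± 0.07 for Srebf1. Scap, the escort of the SREBP proteins (13.2% of its exon bases overlap another gene), had 62.2 to 70.3 CPM with roxadustat and 116 to 129 CPM in controls at day 21 (-0.86 ± 0.07, adjusted p = 5.6e-12). Its day 7 call as higher (0.17 ± 0.07, adjusted p = 0.0361) was lost with DESeq2's size factors (0.13, adjusted p = 0.116) and without 6 of the 8 libraries in turn.

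Among the movers of sterol, Npc1, which lets cholesterol out of lysosomes, was lower at day 21, at 74.6, 69.8, 69.7 and 68.9 CPM with roxadustat and 137, 146, 151 and 153 CPM in controls (-1.05 ± 0.06, adjusted p = 1.91e-15). At day 7 the difference was smaller, at 64 to 72.2 CPM with roxadustat and 79.9 to 81.4 CPM in controls, still without overlap (-0.23 ± 0.06, adjusted p = 0.00119). Stard4, a carrier of cholesterol between membranes, was not called at any time, with -0.40 ± 0.15 at day 0 (adjusted p = 0.121), 0.07 ± 0.11 at day 7 and 0.04 ± 0.11 at day 21. Without control replicate 2 Stard4 was called lower at day 0 (-0.70, adjusted p = 0.000154).

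Both exporters were lower with roxadustat in culture. Abca1, which loads cholesterol onto apolipoproteins (chromosome 4, 53030787 to 53159895), had 92.3, 92.8, 90.2 and 92.5 CPM with roxadustat at day 21, against 352, 364, 389 and 404 CPM in controls. At day 7 it had 162, 161, 170 and 161 CPM with roxadustat, against 260, 261, 256 and 267 CPM in controls. Both times were without overlap, with log2 fold changes of -2.04 ± 0.07 and -0.67 ± 0.07 (adjusted p = 6.42e-20 and 2.45e-09). Fresh cells were not called for Abca1 (114 and 99.3 CPM with roxadustat, 80.9 and 113 CPM in controls; 0.14 ± 0.10, adjusted p = 0.506), though without control replicate 2 they were called higher (0.39, adjusted p = 0.00467). Abcg1, which passes cholesterol to lipoproteins, had 2.83, 3.16, 3.33 and 3.53 CPM with roxadustat at day 7, against 13.2, 13.6, 12.9 and 14.8 CPM in controls (-2.08 ± 0.13, adjusted p = 1.39e-13). At day 21 it was low in all libraries, with 1.29, 1.28, 1.59 and 1.08 CPM with roxadustat and 4.05, 2.76, 4.55 and 4.71 CPM in controls (-1.64 ± 0.18, adjusted p = 8.59e-09).

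In culture the LXR genes were not called lower, unlike Abca1 and Abcg1, which LXR is known to switch on. The level of receptor mRNA does not measure LXR activity, which was not tested. At day 0 neither LXR gene was called (-0.17 ± 0.09 for Nr1h2 and -0.16 ± 0.14 for Nr1h3). Nr1h3, LXR alpha, had 3.12, 3.16, 3.11 and 2.71 CPM with roxadustat at day 7, against 0.906, 2.29, 2.06 and 1.45 CPM in controls (0.83 ± 0.18, adjusted p = 0.000427). At day 21 it had 3.78 to 6.05 CPM with roxadustat and 3.75 to 4.48 CPM in controls (0.28 ± 0.15, adjusted p = 0.121), and without roxadustat replicate 3 it was called higher (0.36, adjusted p = 0.0459). Nr1h2, LXR beta, was higher at day 7 (51.7 to 55.1 CPM with roxadustat, 41.7 to 47 CPM in controls; 0.27 ± 0.06, adjusted p = 0.00112) and not called at day 21 (0.06 ± 0.07, adjusted p = 0.431).

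Markers of cell types also differed between the arms. Of the epithelial markers, whose sums are given above, Cdh16, Epcam, Cdh1 and Krt18 were lower with roxadustat at day 0 and the rest not called. At day 7 Cdh16, Epcam, Pax8, Cdh1, Krt8, Krt18 and Lrp2 were higher with roxadustat, and Slc34a1, Umod and Slc12a1 were not called. At day 21 the stromal markers summed to 2760 to 3750 CPM with roxadustat and 27700 to 33800 CPM in controls (8 of 10 lower, 2 higher). The 6 macrophage markers summed to 15.2 to 16.9 CPM with roxadustat and 256 to 303 CPM in controls (all 6 lower). The 6 endothelial markers summed to 74.6 to 78.1 CPM with roxadustat and 271 to 294 CPM in controls (3 lower). Flt1 held most of that sum, with a mean of 72.5 CPM with roxadustat and 257 CPM in controls. Pecam1, Cdh5 and Tek were near the floor, with means of 0.259, 0.227 and 0.798 CPM with roxadustat. Their means in controls were no higher, at 0.0636, 0.0727 and 0.53 CPM. The 4 cell cycle genes summed to 61.8 to 66.7 CPM with roxadustat and 92.8 to 98 CPM in controls (3 lower). At day 7 the sums with roxadustat were 3400 to 4030 CPM for stroma, 14 to 15.7 for macrophages, 23.7 to 29.3 for endothelium and 86.3 to 92.4 for the cell cycle. Those in controls were 5780 to 6050, 306 to 312, 73.4 to 79.3 and 359 to 373 CPM. Of the single markers at day 7, 4 of 10 stromal ones were lower and 1 higher, all 6 of macrophages and all 4 of the cell cycle were lower. The 6 endothelial markers split, with Pecam1, Cdh5 and Tek higher (log2 fold changes of 1.62, 1.74 and 2.62) and Kdr, Flt1 and Emcn lower (-0.97, -1.75 and -2.26). Pecam1 and Cdh5 were near the floor at day 7 too, with means of 0.579 and 0.252 CPM with roxadustat and 0.19 and 0.0689 CPM in controls. The libraries of the arms overlapped for Pecam1. Flt1 held most of the summed CPM of that list in both arms and was 3.37-fold lower with roxadustat. At day 0 macrophage markers were higher with roxadustat (166 to 194 CPM, against 67.1 to 83.6 CPM in controls, all 6 called) and endothelial markers lower (116 to 119 CPM, against 187 to 212 CPM in controls, all 6 called). The part of these cell types in the sterol genes was not tested, and in bulk RNA fewer cells of a type and less RNA per cell cannot be told apart. Of the T and B cell markers, Cd3e was at 0 in every group but fresh controls, and no library reached 1 CPM for both together.

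Between days 7 and 21 of culture the members parted. In roxadustat cells 17 were lower and 3 higher at day 21 than at day 7 (69%, against 61.5% of all genes, 28.6% higher and 32.9% lower), with a median log2 fold change of -0.33 against -0.03. In control cells 20 were higher and 1, Abcg1, lower (72.4%, against 68.7%, 34.5% higher and 34.3% lower), with a median of 0.54 against 0; with library size alone 19 were higher and 4 lower. Among the 18 enzymes 13 were lower in roxadustat cells and 13 higher in control cells. Insig1 had log2 fold changes of -0.40 ± 0.09 in roxadustat cells (adjusted p = 0.000735) and 1.48 ± 0.09 in control cells (adjusted p = 5.3e-13). For Abca1 the log2 fold changes were -0.83 ± 0.07 with roxadustat and 0.53 ± 0.07 in controls (adjusted p = 1.82e-10 and 7.54e-08). Srebf2 was higher at day 21 in both (0.73 ± 0.13 and 1.13 ± 0.13; adjusted p = 7.86e-05 and 3.47e-07), and so was Dhcr7 (0.36 ± 0.12 and 0.97 ± 0.11; adjusted p = 0.00971 and 8.55e-09). In roxadustat cells Ebp had 19.5 to 20.5 CPM at day 21, against 31 to 33.8 CPM at day 7 (-0.67 ± 0.08, adjusted p = 1.19e-07), and Acat2 10.8 to 13 CPM, against 16.4 to 20.5 CPM (-0.61 ± 0.14, adjusted p = 0.0011). In control cells Scap had 116 to 129 CPM at day 21, against 61.5 to 68 CPM at day 7 (0.93 ± 0.07, adjusted p = 1.42e-12). Sqle was not called in roxadustat cells (-0.01 ± 0.06, adjusted p = 0.891) and was higher in control cells (0.74 ± 0.06, adjusted p = 1.43e-11).

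The difference between the arms was itself tested. The roxadustat effect was lower at day 21 than at day 7 in 22 members and higher in none (75.9%, against 44.7% of all genes, 20.9% higher and 23.8% lower), among them 17 of the 18 enzymes; with library size alone 17 were lower and 2 higher. The 5 members with the smallest p were Abca1 (difference of log2 fold changes -1.36 ± 0.10, adjusted p = 2.08e-12), Insig1 (-1.88 ± 0.13, adjusted p = 1.14e-11), Scap (-1.03 ± 0.09, adjusted p = 4.45e-10), Mvd (-1.09 ± 0.10, adjusted p = 6.33e-10) and Npc1 (-0.82 ± 0.08, adjusted p = 1.51e-09). Insig2 was not called (-0.04 ± 0.08, adjusted p = 0.745).

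**Figure D4:**
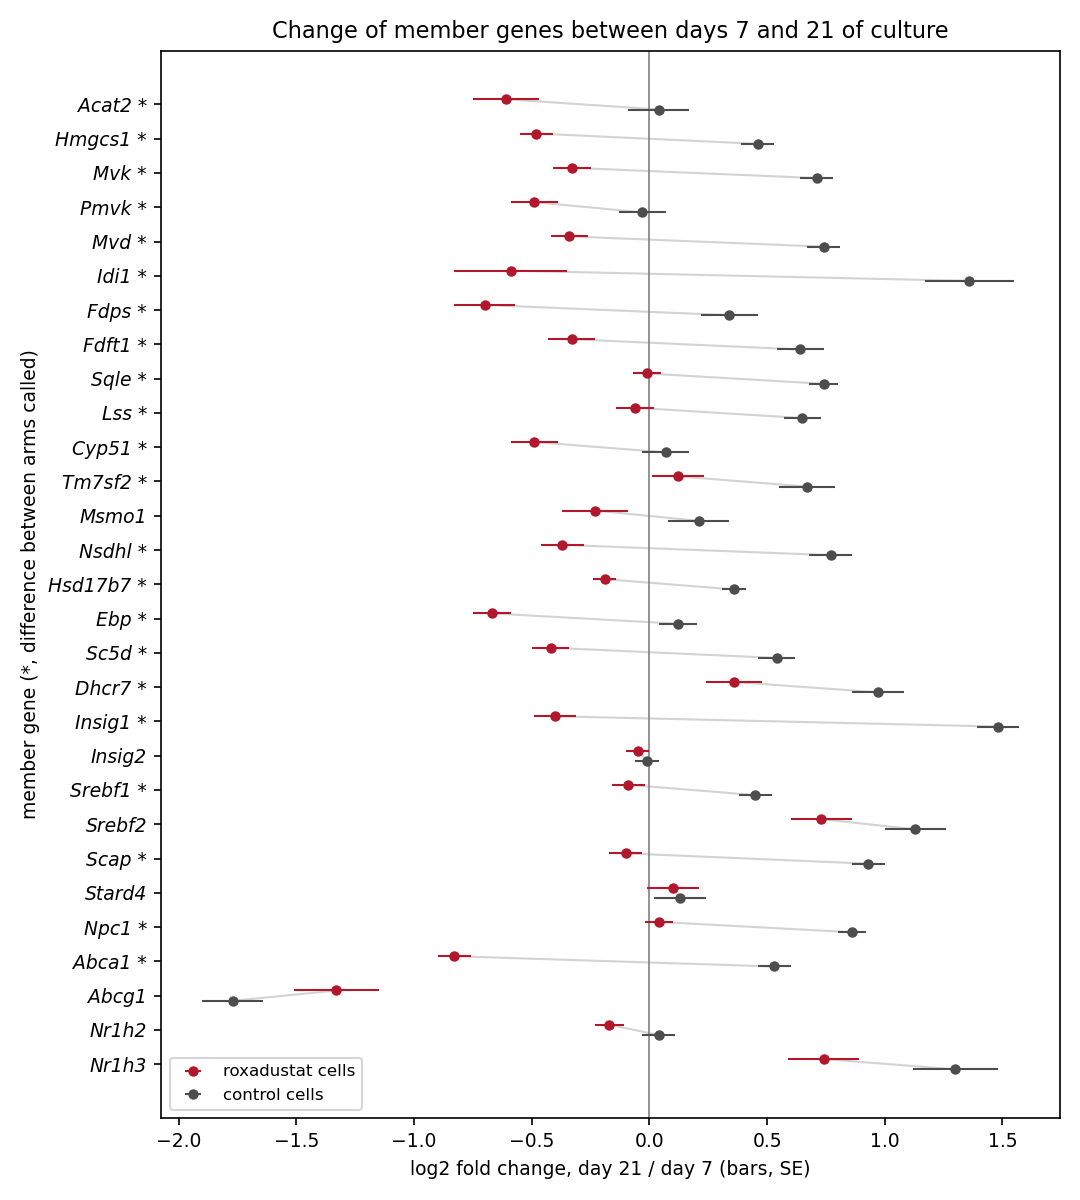
Log2 fold change of 29 members from day 7 to day 21 (x axis; bars are standard errors) in roxadustat (red) and control (grey) cells; a star marks a called difference between the arms. Most red points lie left of 0 and most grey points right of it, and Abcg1 is far to the left in both (-1.33 and -1.77).

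From fresh cells to day 7 most members changed in both arms, as did most genes. In roxadustat cells 11 were higher and 13 lower at day 7 (82.8%, against 74.6% of all genes, 37.1% higher and 37.6% lower), and in control cells 10 higher and 15 lower (86.2%, against 76.5%, 37% higher and 39.5% lower). The libraries of the 2 days did not overlap in 25 members in each arm, against 80.5% of all genes with roxadustat and 80.7% in controls. With library size alone, which moved the median of all genes to 0.46 and 0.40, the splits were 16 higher and 9 lower with roxadustat, and 13 and 11 in controls. Nr1h3 had the largest change of the members in both arms, with 0.906 to 3.16 CPM across all libraries of day 7, against 41.2 to 50.7 CPM across all fresh libraries (log2 fold change -3.79 ± 0.14 with roxadustat and -4.78 ± 0.15 in controls; adjusted p = 2.11e-19 and 6.03e-21). Hmgcs1 came next (-3.11 ± 0.08 and -2.61 ± 0.08; adjusted p = 1.64e-23 and 6.41e-22). Idi1 and Acat2 were lower as well (-1.95 ± 0.21 and -1.86 ± 0.15 with roxadustat, and -2.08 ± 0.20 and -1.64 ± 0.15 in controls). Nsdhl in control cells had 18.1 to 19.5 CPM at day 7, against 49.4 and 68.3 CPM at day 0 (-1.65 ± 0.10). Mvk, Fdps, Msmo1 and Hsd17b7 were higher at day 7 in both arms. The log2 fold changes were 1.40 ± 0.11, 1.89 ± 0.20, 1.47 ± 0.19 and 1.35 ± 0.07 with roxadustat, and 1.07 ± 0.10, 1.19 ± 0.17, 1.23 ± 0.18 and 0.89 ± 0.07 in controls. Enzymes of the same route thus moved in both directions between day 0 and day 7. Over the same days the epithelial marker sums fell to 259 to 644 CPM, against 26900 to 34300 CPM in fresh cells; the part of this in the sterol genes was not tested.

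The roxadustat effect differed between day 7 and day 0 in 16 members, higher at day 7 in 11 and lower in 5 (55.2%, against 28.9% of all genes, 15.5% higher and 13.4% lower). Those with the smallest p were Insig2 (0.81 ± 0.10, adjusted p = 1.8e-07), Abcg1 (-1.60 ± 0.22, adjusted p = 2.61e-06), Abca1 (-0.81 ± 0.12, adjusted p = 5.69e-06), Nsdhl (0.93 ± 0.14, adjusted p = 1.28e-05) and Hsd17b7 (0.46 ± 0.10, adjusted p = 0.000707). In 352 checks of these 16 results under other settings, 313 kept call and direction and 39 lost the call. Day 0 is injection of mice read in fresh cells, and day 7 is drug in culture. Time, route of exposure, culture and cell make-up therefore cannot be told apart in this difference.

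**Figure D5:**
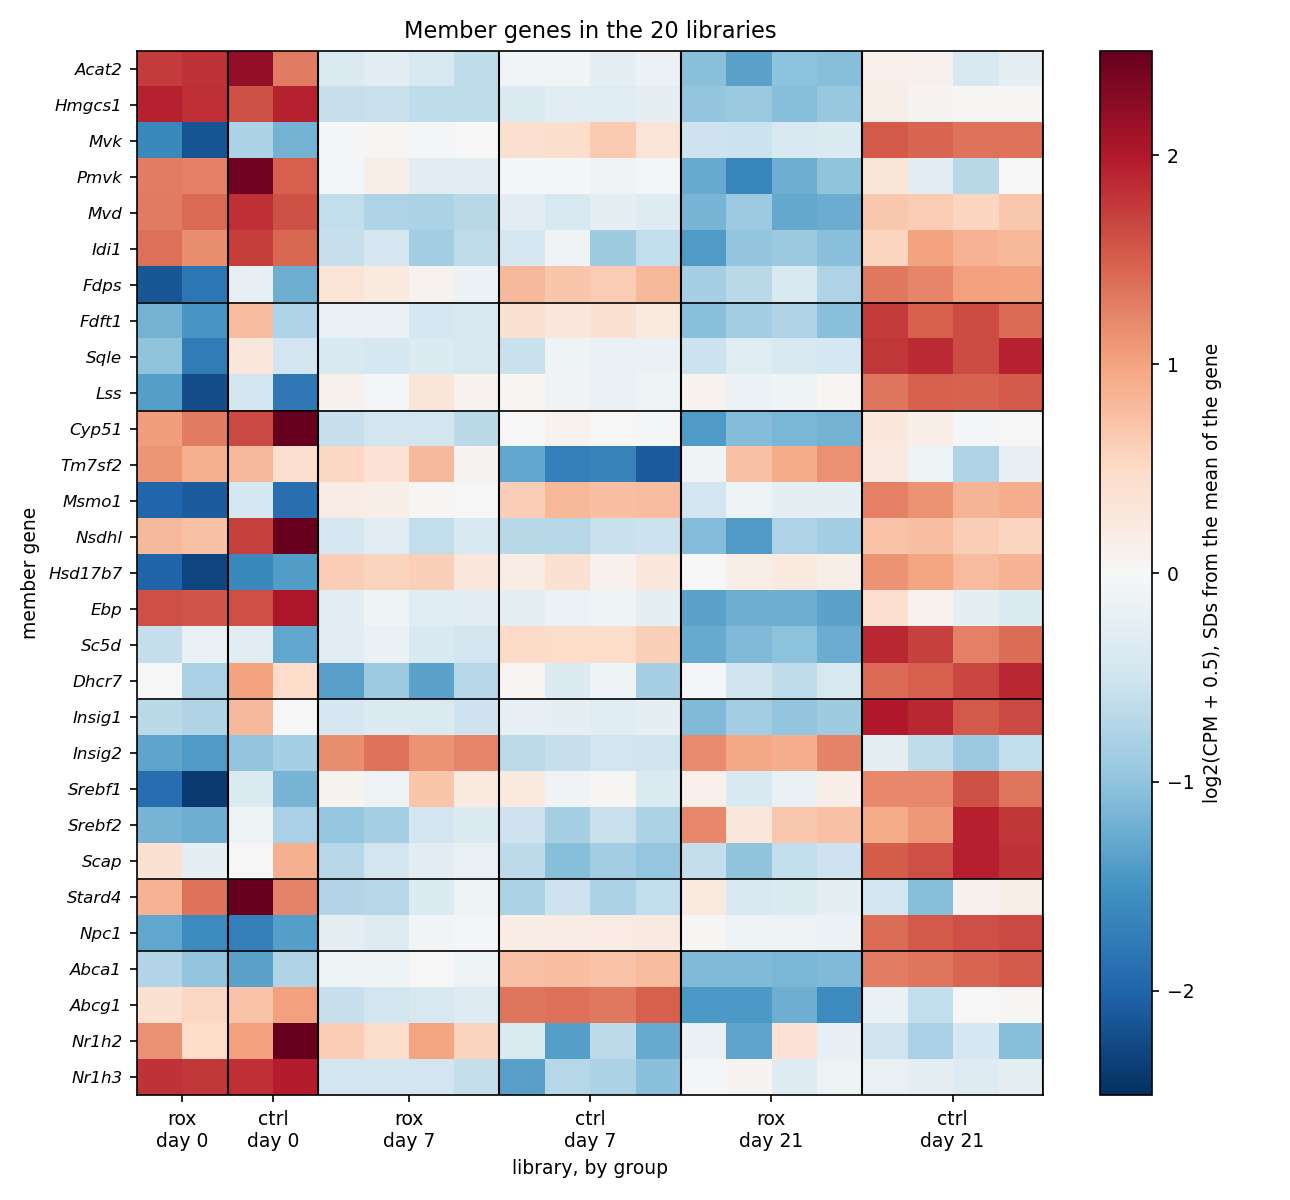
Log2 level of 29 members (down the page) in the 20 libraries (across, by group, roxadustat left of control at each day), as SDs from the mean of the gene; red is high and blue low. Control libraries of day 21 are redder than the roxadustat libraries beside them for every enzyme but Tm7sf2, while Insig2 is red in the cultured roxadustat libraries and blue in the cultured controls.

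In RPKM, CPM divided by the exon length in kilobases, Hmgcs1 led in every group: 284 ± 16.2 RPKM with roxadustat and 262 ± 53.7 RPKM in controls at day 0 (SD, n = 2 each). The levels were 32.9 ± 1.16 RPKM with roxadustat and 42.9 ± 1.43 RPKM in controls at day 7, and 23.5 ± 1.2 RPKM with roxadustat and 59.1 ± 2.92 RPKM in controls at day 21 (n = 4 each). With the longest transcript as the length it came after Msmo1 in roxadustat cells of day 21. Next in order at day 21 stood Insig2 (20.9 ± 0.825 RPKM) in roxadustat cells and Insig1 (49.4 ± 5.24 RPKM) and Abca1 (36.4 ± 2.27 RPKM) in controls. Abcg1, Idi1 and Fdps were among the lowest in roxadustat cells of day 21 (0.18, 0.245 and 1.42 RPKM), beside Npc1l1.

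A further 30 genes of sterol handling that are no members, 28 of them tested, were more evenly split than the members. At day 21 16 of the 28 were lower and 10 higher with roxadustat, both larger shares than the 32.9% lower and 30% higher among all tested genes. At day 7 9 were lower and 7 higher, beside 23.6% and 24.1% of all genes. At day 0 2 were lower and 1 higher, beside 4.11% and 2.73% of all genes. Cyp7b1, which hydroxylates oxysterols, had 1.29, 2.39, 1.49 and 2.26 CPM with roxadustat at day 21, against 68.8, 61.2, 55.3 and 60.2 CPM in controls (-4.98 ± 0.20, adjusted p = 2.78e-14). At day 7 Cyp7b1 had 1.92, 2.17, 1.36 and 1.72 CPM with roxadustat, against 6.08, 7.3, 8.6 and 7.03 CPM in controls (-2.01 ± 0.23, adjusted p = 5.79e-07). At day 0 it had 19.1 and 10 CPM with roxadustat, against 26.2 and 36.1 CPM in controls (-1.08 ± 0.22, adjusted p = 0.00452). The libraries of the arms did not overlap at any of the 3 times. Ch25h, which makes an oxysterol that acts on INSIG and LXR, had 7.28, 6.72, 6.46 and 7.33 CPM with roxadustat at day 21, against 64.1, 63.6, 57 and 59.2 CPM in controls (-3.13 ± 0.08, adjusted p = 5.33e-23). At day 7 Ch25h was higher with roxadustat (12.1 to 15 CPM, against 8.8 to 9.09 CPM in controls; 0.56 ± 0.08, adjusted p = 1.27e-06). At day 0 it was low and called lower, with 0.53 and 0.609 CPM with roxadustat and 1.56 and 1.25 CPM in controls (-1.30 ± 0.31, adjusted p = 0.0224). Npc2, the lysosomal partner of Npc1, was lower at day 21 (-1.53 ± 0.07, adjusted p = 4.94e-16), whereas the sterol carriers Gramd1c and Stard5 were higher (2.09 ± 0.13 and 1.39 ± 0.10; adjusted p = 3.72e-14 and 2.83e-12). Gramd1c and Stard5 were also higher at day 7 (0.99 ± 0.11 and 0.76 ± 0.10; adjusted p = 1.41e-08 and 2.82e-07). Acss2, which makes acetyl-CoA from acetate, was higher with roxadustat at day 7, at 26.1 to 31.1 CPM, against 10.8 to 12.4 CPM in controls (1.28 ± 0.10, adjusted p = 6.42e-11). Soat1, which stores cholesterol as esters, was higher at day 0 by a small margin (42.7 and 44.7 CPM with roxadustat, 37.6 and 37.3 CPM in controls; 0.22 ± 0.07, adjusted p = 0.0498).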

How the data were processed

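RNA of 20 libraries was sequenced, from a non-stranded mRNA kit per the labels' protocols. The authors deposited raw counts per Ensembl gene, 1 table per library; per the submitters' processing notes STAR 2.5.2a, featureCounts 1.5.0-p1, bcl2fastq and mm10 were used. The annotation release is not given in the sources used here. Of 47729 genes, 47224 were matched to GENCODE M21. Groups came from the treatment and time labels. Counts were fitted in 1 model of 6 groups with edgeR 4.0.16 (R 4.3.3; filterByExpr, TMM, robust quasi-likelihood F test, Benjamini-Hochberg adjustment over 18731 genes, threshold 0.05). Standard errors are |log2 fold change|/sqrt(F), and CPM and RPKM were computed from the counts. Alternatives were other scalings and filters, limma voom 3.58.1, DESeq2 1.42.0, the groups compared alone, a replicate block, and leaving out each library; the steps were tested on simulated data. Total counts of 8502011 to 19903160 per library limit precision in genes under 5 CPM. The members and lists were chosen with earlier results of these data known. Members given with library values or ranges are those of largest change at 5 CPM or more without overlap, up to 8 (5 in culture changes), plus 8 preset genes and the 5 smallest p of each interaction; other members named, and Ch25h at days 0 and 7, fall outside this, a choice made with their values in view. Of the other sterol genes, up to 5 called in each roxadustat against control comparison, at 5 CPM or more, were named by size of change; those of the culture comparisons were left out. Summing the close pairs of control libraries at day 21 was chosen after seeing the data. Promoters are from RefSeq (GRCm38.p6). Some genes of the pathway are not reported here.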

Additional observations from a re-analysis of the deposited data

Results flagged for a closer look

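The roxadustat effect differed between times by a test of the difference itself (edgeR) in the members with the smallest p. Days 0 and 7 also differ in route of exposure (injected mice, drug in culture), in culture and in cell make-up, which cannot be told apart from time. Between day 7 and day 0 the differences of log2 fold changes were 0.81 for Insig2, -1.60 for Abcg1, -0.81 for Abca1, 0.93 for Nsdhl and 0.46 for Hsd17b7. Between day 21 and day 7 they were -1.36 for Abca1, -1.88 for Insig1, -1.03 for Scap, -1.09 for Mvd and -0.82 for Npc1. For Nsdhl the roxadustat cells were lower at day 0 and not called at day 7, and for Insig2 they were not called at day 0 and higher at day 7.

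A library far from the other 3 of its group was looked for in 116 pairs of gene and group and found in 7, with a gap to the nearest library, as a share of the range, past Dixon's 95% critical value; chance alone gives about 1 in 20. In roxadustat cells of day 7, Abca1 had 170 CPM in replicate 3 (others 161 to 162), and in replicate 4 Hsd17b7 had 82.1 CPM (others 90.5 to 91.9) and Nr1h3 2.71 CPM (others 3.11 to 3.16). In roxadustat cells of day 21, Acat2 had 10.8 CPM in replicate 2 (others 12.7 to 13) and Npc1 74.6 CPM in replicate 1 (others 68.9 to 69.8). In control cells of day 7, Sc5d had 75.9 CPM in replicate 4 (others 72.2 to 72.8) and Sqle 70.5 CPM in replicate 1 (others 77.6 to 79.1).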

How the results depend on the processing

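The counts of called members kept within 1.5 times of the reported count under every alternative run except at day 0, where the count of 10 was 0 in the fit on the 4 day 0 libraries alone (12 at an unadjusted p below 0.05; 0 with limma voom and 2 with DESeq2, both chosen after seeing the data) and 6 to 16 when 1 library was left out. Leave-one-out counts were 16 to 17 at day 7 and 26 to 27 at day 21, against 18 and 26 with all libraries. With the control pairs of day 21 summed, 26, 21 and 22 members were called at day 21, between days 21 and 7 in control cells, and in the difference of effects. Over 215 gene results 3968 checks were run: 3769 kept call and direction, 146 lost the call, 27 gained it and 26 turned direction.

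Same-numbered libraries shared little of their deviation from the group means (42 pairs of same-numbered samples, r from -0.179 to 0.235, 2 over 0.1). The labels do not say whether the numbers link libraries, and low r over all genes, many of low count, cannot exclude it. With a replicate block 10, 18 and 26 members were called at days 0, 7 and 21, 25 in each arm between days 7 and 0, 21 in control and 20 in roxadustat cells between days 21 and 7, and 16 and 23 in the differences of effects.

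Directions turned mostly in results near 0, but also in called ones. With library size alone log2 fold changes were 0.03 for Acat2 at day 0, 0.06 for Pmvk, 0.02 for Sqle and 0.03 for Ebp at day 7, and 0.08 for Dhcr7 and 0.26 for Scap (adjusted p = 0.00444) between days 7 and 0 in roxadustat cells. In the main edgeR fit Dhcr7 and Scap were called lower there (-0.36 and -0.18, adjusted p = 0.0261 and 0.0493). With library size alone Scap was thus called in the opposite direction. Acat2 at day 0 was 0.02 with limma voom, and Srebf2 at day 7 was -0.02 with DESeq2's size factors and its test. When 1 library was left out, ranges that crossed 0 were at day 0 -0.36 to 0.40 for Acat2, -0.08 to 0.34 for Hmgcs1, -0.55 to 0.01 for Lss, -0.07 to 0.45 for Sc5d, -0.29 to 0.03 for Scap, -0.05 to 0.16 for Npc1 and -0.09 to 0.39 for Abca1; at day 7 -0.28 to 0.04 for Idi1, -0.05 to 0.01 for Pmvk and -0.04 to 0.07 for Srebf2; and at day 21 -0.03 to 0.10 for Stard4. The cause was not tested. Genes under 5 CPM, such as Idi1 in culture and Abcg1 at day 21, are limited by depth.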
